A study of Saccharomyces cerevisiae with 2 samples.

Results

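The 35S pre-rRNA of budding yeast, the single transcript (RDN37) from which 18S, 5.8S and 25S rRNA are cut, was examined region by region for its read density in an experiment on RNA bound by the protein Bud22. The members were the rows of class rRNA for the precursor, RDN37-2, and for the regions inside it, which from the 5′ end are ETS1-2, RDN18-2, ITS1-2, RDN58-2, ITS2-2 and RDN25-2. Of 8 rows sought, 7 were found among 2635 named features seen in either library. The 3′ external spacer ETS2-2 is listed in neither library, so no value is given for it.

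The method, CRAC, is short for UV crosslinking and analysis of cDNA. A tagged protein is crosslinked to RNA in living cells and purified under denaturing conditions, and the RNA fragments that come with it are sequenced. The series holds 2 Saccharomyces cerevisiae libraries, 1 from a strain carrying Bud22-His-TEV-protein A and 1 from W303 wild type without a tag, which gives the background of the purification. Both were grown in YPD to an optical density of 1.0, moved to medium lacking uracil and containing 4-thiouracil, a uracil analogue that crosslinks under long-wave UV light. They stayed there for 4 h before UV treatment at 365 nm, which lasted 30 min. The control is wild type by genotype, title and source name, but its growth text names the tagged strain, which was not resolved here. Each group is 1 library, which leaves no test and no replicate check, so each difference is between these libraries. Intervals are exact 95% intervals for counting error only, and do not cover the copying of molecules by PCR.

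As background, the precursor holds its mature rRNAs between spacers that are cut away. The 5′ external spacer (ETS1) and internal spacer 1 (ITS1) flank 18S, the rRNA of the small subunit. ITS1 separates it from 5.8S, and internal spacer 2 (ITS2) separates 5.8S from 25S, both rRNAs of the large subunit. The 5′ external spacer is the landing site of the U3 particle and of the small subunit processome, and Bud22 is a nucleolar factor of small subunit production. Spacer reads come from precursor or its cut fragments, whereas reads in 18S, 5.8S and 25S can come from precursor or from finished ribosomes, and counts per region cannot tell these apart.

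The precursor held 13752 sense reads with Bud22 against 17216 in the control. These are 6.37% and 13.0% of the sense counts summed over all named features (215982 and 132895). The sums count a read in every row it overlaps, nested regions and both rDNA copies included. They exceed the mapped reads, 188065 and 97270, so the percentages are shares of counts and not of mapped reads. A distinct entry is a read with all its copies counted once, as read from the deposited column of read numbers. The precursor held 558 entries with Bud22 and 4977 in the control, so that 1 entry stood for 24.6 reads in the first and 3.46 in the second. Over all named features the same quotients were 36.5 and 3.58. Reads and entries are both given throughout, since 1 entry in the Bud22 library can carry many reads.

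Density was taken as reads or entries per nucleotide of a region. The annotated lengths are those of the R64 reference table, at 700 nt for ETS1, 1800 for 18S, 361 for ITS1, 158 for 5.8S, 232 for ITS2 and 3396 for 25S, out of 6858 for the precursor. A density relative to the precursor is the region's density over that of RDN37-2, so that 1 is the average of the precursor.

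In the Bud22 library the 5′ external spacer was read almost as densely as the average of the precursor. In the control its read density was well below that average and lay between those of the internal spacers. ETS1-2 had 1352 reads with Bud22, or 1.93 reads per nt (interval 1.83 to 2.04), and 218 in the control, or 0.311 per nt (0.271 to 0.356). Relative to the precursor these densities were 0.963 and 0.124. By entries, 56 against 124, the relative densities were 0.983 (0.751 to 1.26) with Bud22 and 0.244 (0.203 to 0.290) in the control. The ratio of relative densities, in which length cancels, was 7.76 (6.72 to 9.0) by reads and 4.03 (2.88 to 5.57) by entries. ETS1-2 thus stood apart from the control on both counts, with the larger ratio by reads.

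The mature 18S sequence was read more densely than the average of the precursor with Bud22. RDN18-2 had 5584 reads with Bud22, or 3.10 per nt (3.02 to 3.18), and 4019 in the control, or 2.23 per nt (2.16 to 2.30). Its relative densities were 1.55 and 0.889 by reads. By entries, 189 against 1390, they were 1.29 (1.14 to 1.45) and 1.06 (1.02 to 1.11). The 18S sequence therefore lay above the average with Bud22 on both counts, and in the control below it by reads and above it by entries. With 25S left out of the precursor total the read ratio was 1.01 (0.967 to 1.05), an interval that includes 1.

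ITS1, which lies between 18S and 5.8S and is cleaved when the small and large subunit precursors part, was sparse in both libraries. ITS1-2 had 100 reads with Bud22, or 0.277 per nt (0.225 to 0.337), and 62 in the control, or 0.172 per nt (0.132 to 0.220). The read ratio of relative densities was 2.02 (1.46 to 2.82). Its 100 reads with Bud22 were 4 entries, against 34 entries in the control. The relative densities by entries were 0.136 (0.0372 to 0.347) with Bud22 and 0.130 (0.0900 to 0.181) in the control, a ratio of 1.05 (0.270 to 2.94). At that depth a difference at ITS1 by entries was not detectable, and the higher read value rests on those 4 entries.

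The 5.8S sequence had the highest density of any region in both libraries by reads. RDN58-2 had 569 reads with Bud22, or 3.60 per nt (3.31 to 3.91), and 1055 in the control, or 6.68 per nt (6.28 to 7.09). By entries it had 26 and 153, or relative densities of 2.02 (1.33 to 2.93) and 1.33 (1.13 to 1.56). The read ratio of relative densities was 0.675 (0.609 to 0.748), and the entry ratio was 1.52 (0.960 to 2.31), which lies on the other side of 1 with an interval that includes it. No direction is therefore given for 5.8S.

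ITS2, between 5.8S and 25S, had the lowest read density of the precursor with Bud22. ITS2-2 had 34 reads there, or 0.147 per nt (0.101 to 0.205), and 175 in the control, or 0.754 per nt (0.647 to 0.875). By entries it had 9 with Bud22 and 28 in the control, and the relative densities were 0.477 (0.219 to 0.899) and 0.166 (0.111 to 0.240). Reads put ITS2 lower with Bud22, with a ratio of 0.243 (0.163 to 0.353), and entries put it higher, with a ratio of 2.87 (1.19 to 6.25). The entry ratio is that of the -2 copy, while ITS2-1 had 6 entries with Bud22 and 26 in the control and was not recomputed by entries. Over all named features the entry ratio was 2.02 (0.837 to 4.39) at ITS2-2 and 1.45 (0.487 to 3.60) at ITS2-1. Both of these intervals include 1. The opposite directions of reads and entries at ITS2-2 go with the reads behind each entry, which numbered 3.78 with Bud22 and 6.25 in the control.

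The 25S sequence, 49.5% of the precursor's length, was read less densely than the average of the precursor with Bud22 and more densely in the control. RDN25-2 had 6229 reads with Bud22, or 1.83 per nt (1.79 to 1.88), and 11761 in the control, or 3.46 per nt (3.40 to 3.53). Its relative densities were 0.915 and 1.38 by reads. By entries, 287 against 3286, they were 1.04 (0.953 to 1.12) and 1.33 (1.31 to 1.36). By entries 25S with Bud22 did not differ from the precursor average beyond counting error, and on both counts it was lower than in the control.

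Reads in 25S were gathered in a short stretch. The reading frame YLR154C-G, which the R64 table places inside RDN25-2 with a length of 150 nt, overlapped 3439 of the 6229 reads with Bud22 and 5019 of the 11761 in the control, 55.2% and 42.7% of the 25S reads on 4.42% of its length. By entries the shares were 55.7% (49.8 to 61.6) and 49.4% (47.6 to 51.1). Outside it 25S had 0.860 reads per nt with Bud22 and 2.08 in the control. In both libraries this stretch raises the average density of 25S well above that of most of its length.

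**Figure D1:**
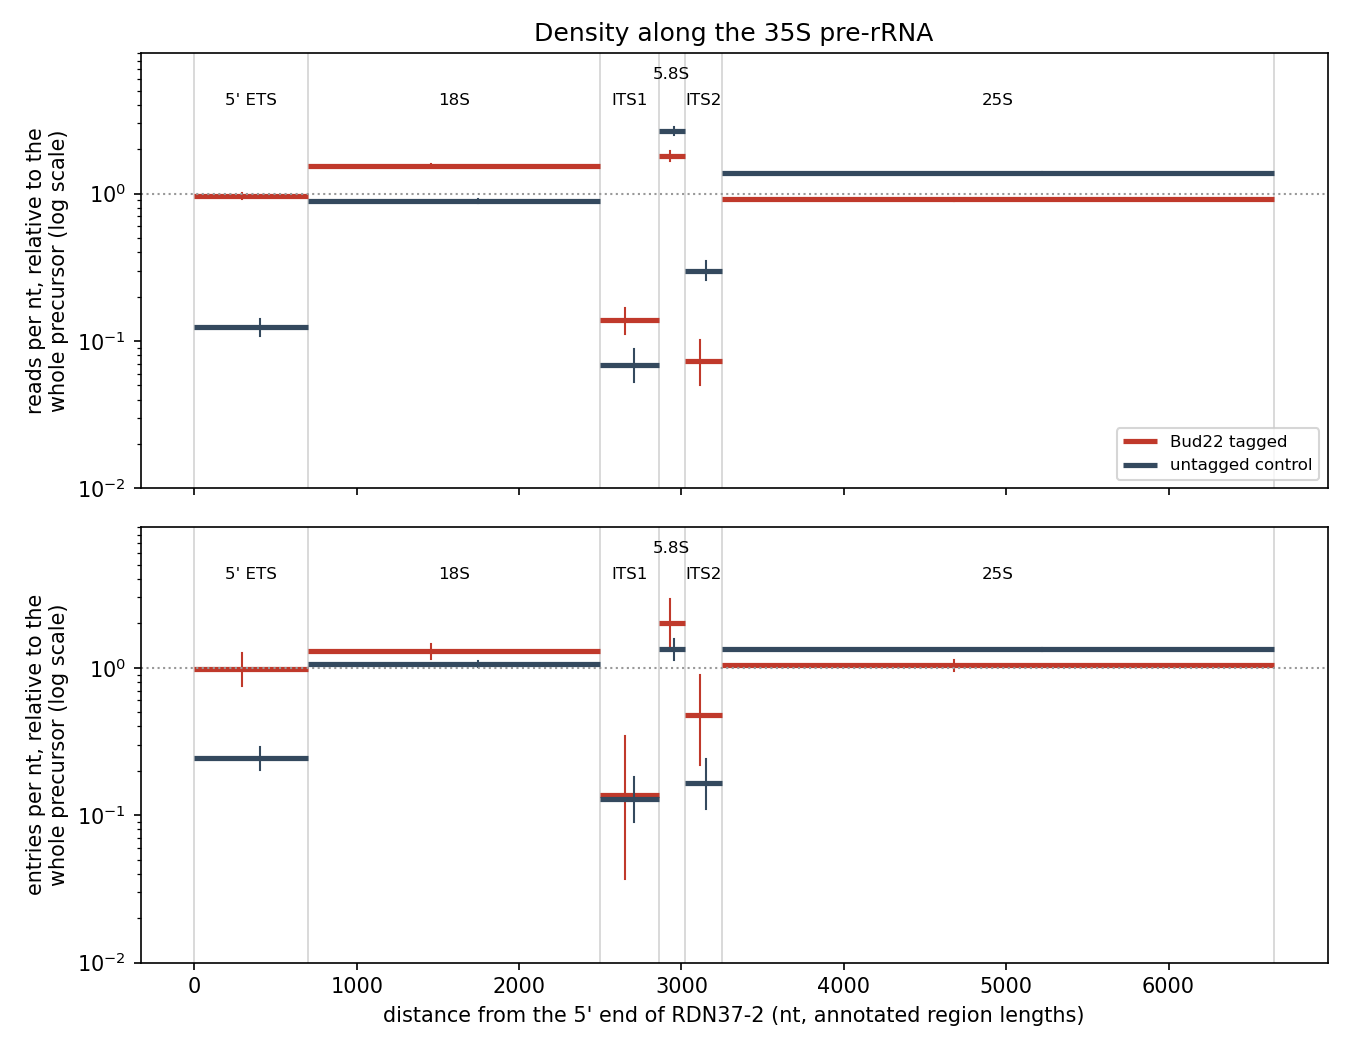
Density of each region relative to the whole precursor (log scale) against distance from the 5′ end of RDN37-2 in nt, by sense reads (top) and distinct entries (bottom), for the Bud22 library (red) and the untagged control (dark blue); horizontal lines span each region and thin vertical lines are exact 95% counting intervals. The 5′ external spacer lies by reads at 0.963 with Bud22 against 0.124 in the control, and by entries at 0.983 against 0.244, while ITS1 lies far below 1 in both libraries.

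Ordered by reads per nt, the Bud22 library ran from 5.8S through 18S, ETS1, 25S and ITS1 to ITS2. The control ran from 5.8S through 25S, 18S, ITS2 and ETS1 to ITS1. Of the 6 regions ETS1 thus took place 3 with Bud22 and place 5 in the control by reads. By entries it took place 4 in both libraries. ETS1 and 25S were neighbours in the Bud22 order, and their density quotient of 1.05 (0.992 to 1.12) did not differ from 1 beyond counting error.

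By entries per 100 nt the Bud22 order was 5.8S at 16.5 (10.7 to 24.1), 18S at 10.5 (9.06 to 12.1), 25S at 8.45 (7.50 to 9.49), ETS1 at 8.0 (6.04 to 10.4), ITS2 at 3.88 (1.77 to 7.36) and ITS1 at 1.11 (0.302 to 2.84). The intervals of neighbours in this order overlapped, and that of ETS1 contained the value of 25S. The exact interval of the quotient still excluded 1 for 18S over 25S, given below, and for ETS1 over ITS2, at 2.06 (1.01 to 4.74). In the control by entries 5.8S and 25S were level, at 96.8 per 100 nt each, followed by 18S at 77.2, ETS1 at 17.7, ITS2 at 12.1 and ITS1 at 9.42. A read that reaches over a region's end is counted whole, which raises short regions most. With 30 nt added to every length, a setting chosen after the data were seen, 18S at 3.05 reads per nt moved ahead of 5.8S at 3.03 in the Bud22 library, and 25S moved ahead of 5.8S in the control by entries, while the other places were kept.

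Density quotients between regions of the same library need no library total, and 10 were computed. The quotient of ETS1 over 18S, the spacer over the mature sequence that follows it, was 0.623 (0.586 to 0.661) by reads with Bud22 and 0.139 (0.121 to 0.160) in the control. By entries it was 0.762 (0.555 to 1.03) and 0.229 (0.189 to 0.276). The quotient with Bud22 was 4.46 times that of the control by reads (3.84 to 5.20) and 3.32 times by entries (2.29 to 4.77). ETS1 was therefore higher with Bud22 also when set against 18S alone.

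Counted by reads, the ETS1 quotient against 25S was 1.05 with Bud22 and 0.0899 in the control, a ratio of 11.7 (10.1 to 13.6). Counted by entries it was 0.947 and 0.183, a ratio of 5.17 (3.61 to 7.32). The 18S over 25S density quotient was 1.69 (1.63 to 1.75) with Bud22 and 0.645 (0.622 to 0.668) in the control by reads, a ratio of 2.62 (2.49 to 2.76). By entries it was 1.24 (1.03 to 1.498) and 0.798 (0.749 to 0.850), a ratio of 1.56 (1.27 to 1.90). Measured against 25S outside YLR154C-G, 18S was the denser in both libraries. Its density was 3.61 times that of the rest of 25S with Bud22 against 1.07 times in the control, counted by reads, and 2.68 against 1.51 times, counted by entries. The 18S sequence lying below 25S in the control thus rested on the reads of that 150-nt stretch.

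The rRNAs that share the large subunit gave a different picture. The 5.8S over 25S density quotient was 1.96 (1.80 to 2.14) with Bud22 and 1.93 (1.81 to 2.05) in the control, counted by reads, and the ratio of these was 1.02 (0.914 to 1.13). By entries the quotient was 1.95 (1.25 to 2.91) with Bud22 and 1.001 (0.845 to 1.18) in the control, a ratio of 1.95 (1.21 to 3.02). Without the reads at YLR154C-G the read ratio was 1.30 (1.16 to 1.46). A difference between the libraries was thus seen by entries and not by reads over whole 25S.

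Among the spacers alone, which unlike 18S, 5.8S and 25S are absent from finished ribosomes, ETS1 had the most reads and entries in both libraries. It is also the longest, at 700 nt against 361 for ITS1 and 232 for ITS2. By reads per nt it was the densest spacer with Bud22 and lay below ITS2 in the control. By entries per nt it was the densest spacer in both. The 3 listed spacers together had 1486 of the 13868 reads summed over the 6 regions with Bud22, 10.7% (10.2 to 11.2), and 455 of 17290 in the control, 2.63% (2.40 to 2.88). By entries they had 69 of 571, 12.1% (9.52 to 15.0), and 186 of 5015, 3.71% (3.20 to 4.27). The density of the spacers over that of the 3 mature sequences was, counted by reads, 0.497 with Bud22 against 0.112 in the control. Counted by entries it was 0.569 against 0.159.

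Within the spacers ETS1 took 91.0% of the reads with Bud22 (89.4 to 92.4) and 47.9% in the control (43.2 to 52.6). By entries it took 81.2% (69.9 to 89.6) and 66.7% (59.4 to 73.4), and the ratio of 1.22 (0.872 to 1.68) included 1. Set against ITS1, the spacer on the other side of 18S, ETS1 was 6.97 times as dense with Bud22 (5.69 to 8.63) and 1.81 times in the control (1.36 to 2.44) by reads. By entries it was 7.22 times (2.67 to 27.4) and 1.88 times (1.28 to 2.84). The ratio of these quotients was 3.85 (2.66 to 5.51) by reads and 3.84 (1.27 to 15.5) by entries, close to each other although the second rests on 4 entries at ITS1. Set against ITS2 the ETS1 ratio was 31.9 (21.3 to 48.7) by reads and 1.41 (0.594 to 3.61) by entries, so that a difference against ITS2 was not detectable by entries.

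ITS1, the spacer after 18S, was sparse beside it in both libraries. Counted by reads, its density was 0.0893 of that of 18S with Bud22 against 0.0769 in the control. Counted by entries it was 0.106 against 0.122. The ratios of 1.16 (0.835 to 1.62) and 0.865 (0.221 to 2.47) both included 1. Beside 18S, ETS1 was thus higher with Bud22, while a difference at ITS1 was not detectable. The interval for ITS1 by entries still allows a ratio from 0.221 to 2.47.

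**Figure D2:**
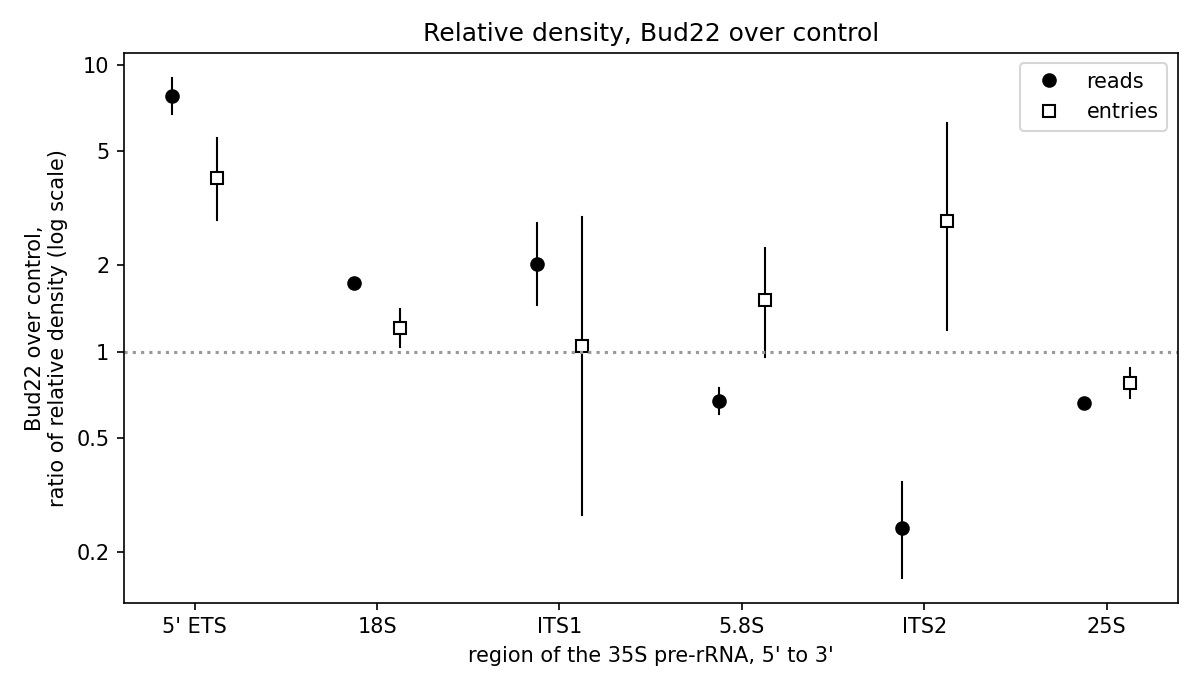
Ratio of relative density, Bud22 over control (log scale), for the 6 regions in order from the 5′ end; filled circles are sense reads, open squares distinct entries, and lines exact 95% intervals for counting error. ETS1 lies at 7.76 and 4.03, and for 5.8S and ITS2 the reads lie below 1 and the entries above it.

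The copies behind each read differed between the regions. The 5 regions other than ITS2-2 had between 21.7 (RDN25-2) and 29.5 (RDN18-2) reads per entry in the Bud22 library, with 24.1 at ETS1-2. In the control the numbers ran from 1.76 at ETS1-2 and 1.82 at ITS1-2 to 6.90 at RDN58-2. The quotient of Bud22 over control was 13.7 at both ETS1-2 and ITS1-2, 10.2 at RDN18-2, 6.06 at RDN25-2, 3.17 at RDN58-2 and 0.604 at ITS2-2. Read ratios exceed entry ratios by these quotients, taken relative to the 7.12 of the whole precursor, so ETS1, ITS1 and 18S stood higher by reads than by entries and ITS2, 5.8S and 25S lower.

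**Figure D3:**
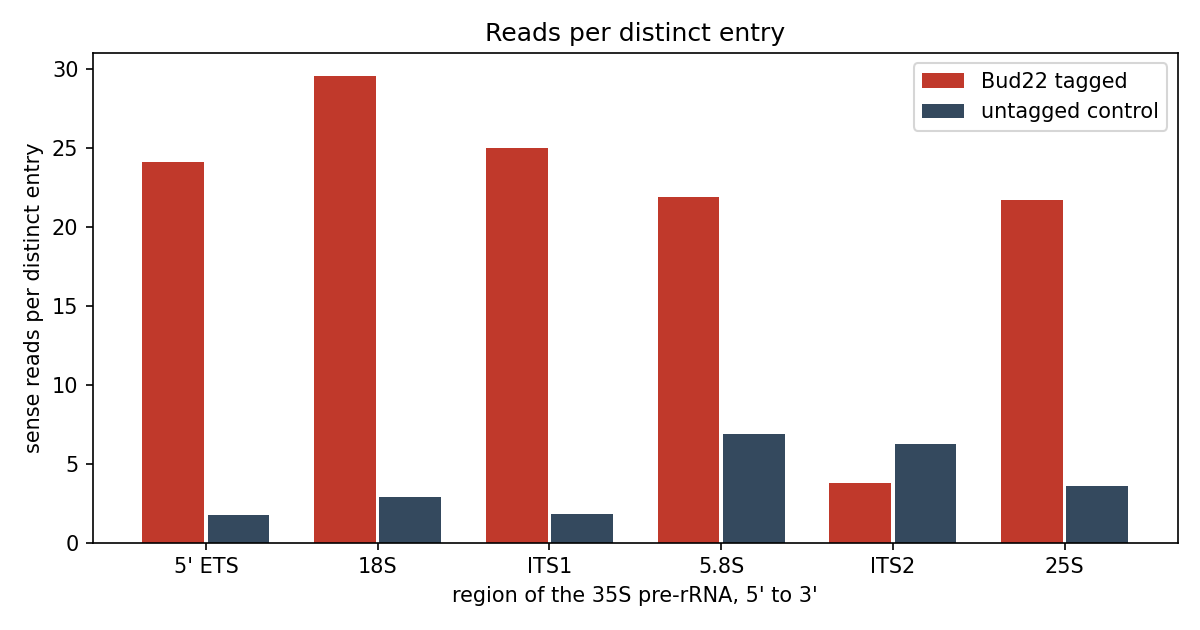
Sense reads per distinct entry in each region from the 5′ end, in the Bud22 library (red) and the untagged control (dark blue), 1 library each and so without error bars. With Bud22 the bars stand between 21.7 and 29.5 except for 3.78 at ITS2, where the control bar of 6.25 is the taller.

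A read that spans the border of neighbouring regions is counted in both, so the sum over the regions exceeds the count of RDN37-2. The excess was 116 reads with Bud22, 0.844% of the precursor's reads (0.697 to 1.01), and 74 in the control, 0.430% (0.338 to 0.539). By entries it was 13, 2.33% (1.25 to 3.95), and 38, 0.764% (0.541 to 1.05). The ratio was 1.96 (1.45 to 2.66) by reads and 3.05 (1.49 to 5.86) by entries. This excess is net of reads inside RDN37-2 but in no listed region, such as the 211 nt of ETS2, and these were not counted apart. A larger excess with Bud22 can therefore be more border-spanning reads or fewer reads outside the listed regions, which cannot be told apart here.

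Over all named features the members were mixed. By reads 1 of the 7, ETS1-2, was at least 2-fold higher with an interval excluding 1, with a ratio of 3.82 (3.31 to 4.42), against a background of 23.7% of 494 measured features called higher. The lower calls were 4 of 7, against 49.4%, namely RDN37-2 at 0.492, RDN58-2 at 0.332, ITS2-2 at 0.120 and RDN25-2 at 0.326. By entries ETS1-2 was again higher, at 2.83 (2.03 to 3.91), against 17.5% of 342 features, and none of the 7 was lower, against 12.6%. Without the fold threshold, the entry intervals of RDN37-2, at 0.703 (0.643 to 0.768), RDN18-2, at 0.853 (0.729 to 0.993), and RDN25-2, at 0.548 (0.484 to 0.618), lay below 1. These shares are near the background and the regions overlap the precursor, so nothing is read from the counts.

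The RNAs that act in cleavage of the precursor were taken as a list of 6, namely the U3 genes SNR17A and SNR17B, SNR30, SNR128 (U14), SNR10, and NME1, the RNA of RNase MRP, which cleaves ITS1. By reads 3 of 5 measured were higher, namely SNR30, SNR128 and SNR10, and the other 2, both U3 genes, were lower. Over all 494 measured features 23.7% were called higher and 49.4% lower. SNR17A had 0 reads with Bud22 against 39 in the control, and SNR17B had 0 against 19. By entries SNR17A had 0 against 15, with an upper bound of 1.75 for the ratio, and SNR17B had 0 against 5, so that a lower U3 share was not detectable by entries. The list's median log2 ratio was 1.43, against -0.93 over all 494 measured features. That median hides a split, with -7.00 and -5.99 at the U3 genes and 1.43 to 2.83 at SNR30, SNR128 and SNR10. The list was also chosen with earlier results of these data known, so nothing is read from its medians. By entries 2 of 4 measured were higher and none lower, against 17.5% and 12.6% of 342 measured features. The median was then 1.31, against -0.22. NME1 had 0 reads with Bud22 against 2 in the control, too few for a direction. By a rule on the distance of log2 ratios over these 2 libraries, the features nearest to ETS1-2 among 35 candidates outside rRNA and tRNA with at least 100 reads were SNR30, SNR128 and SNR10. Their log2 distances were 0.0828, 0.502 and 0.905. Their likeness to ETS1-2 by reads is set by that rule, so nothing is read from it. SNR30 was the nearest, with a read ratio of 4.06 (3.08 to 5.45), and 2.23 (1.01 to 4.55) by entries. SNR128 had 2.71 (2.07 to 3.57) and 4.36 (2.15 to 8.63), and SNR10 had 7.38 (4.19 to 14.2) and 2.51 (0.574 to 8.70), the last interval including 1.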

How the data were processed

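The deposited values are raw counts of sense and antisense reads per feature with a number of read entries, made by pyReadCounters (Counters version 1.2.1), per the file headers. For aligner settings, trimming and duplicate removal the sources used here state nothing. The same holds for the genome build, and coordinates are therefore left out. Region lengths are those of the R64 table and assume like borders in the authors' annotation. Ratios between libraries do not use them. The entry number is inferred from the values to be distinct reads, and was limited to the sense count. Library totals leave out intergenic rows. Most rows have equal values at both rDNA copies, so the copies of a member were not added and the -2 copies were used. The totals over named features do hold both copies and the nested regions, so that rRNA reads enter them repeatedly. Without the rRNA rows these totals would be 155827 with Bud22 and 60539 in the control.

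Shares have Clopper-Pearson intervals, densities Poisson, ratios conditional binomial and quotients conditional odds ratio intervals (scipy 1.17.1), all exact at 95%. The calls and the ratio and quotient intervals were tested on simulated independent Poisson counts. These hold no copies of reads, so the test does not cover the read intervals of these libraries. A call needed 10 counts in the libraries together, a 2-fold ratio in either direction and an interval without 1. Log2 ratios used a pseudocount of 0.5. The genes named are the members, the 6 RNAs of cleavage, and the 3 features nearest ETS1-2 in log2 ratio. YLR154C-G was added after its values were seen. Members and lists were chosen with earlier results of these data known. Alternatives were entries, both strands, the -1 copies, other totals, a 99% interval and other call limits.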

Additional observations from a re-analysis of the deposited data

How the results depend on the processing

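Of 83 recomputed values, 46 stayed within the main value's interval (or 1.5 times a count), 31 moved and 6 turned, that is, lay on the other side of 1. Among those that turned, the intervals included 1 for ITS1-2 over named features, RDN58-2 by entries and ITS2 over ITS1 by entries. No direction is given for these. A 99% interval leaves the values as they are, and those of all 6 region ratios by reads still excluded 1. With the -1 copies no value by reads moved. As 5 of the 6 rows with both copies listed are equal, only values with ITS2 could move there. With both strands 1 value moved, RDN37-2 over named features, from 0.492 to 0.505. Distinct entries gave 4.03 for ETS1-2, 1.21 for RDN18-2, 1.05 for ITS1-2 and 0.779 for RDN25-2, turned RDN58-2 to 1.52 and ITS2-2 to 2.87, and gave 0.703 for RDN37-2. The entry quotient ratios were 1.56 for 18S over 25S, 3.32 for ETS1 over 18S, 1.41 for ETS1 over ITS2, 5.17 for ETS1 over 25S and 1.95 for 5.8S over 25S, and turned to 2.73 for ITS2 over ITS1 and 3.68 for ITS2 over 25S. With all named features as the total ETS1-2 was at 3.82, RDN58-2 at 0.332, ITS2-2 at 0.120 and RDN25-2 at 0.326, while RDN18-2 turned to 0.855 and ITS1-2 to 0.992. With the precursor outside 25S as the total, the values were 4.50 (ETS1-2), 1.01 (RDN18-2), 1.17 (ITS1-2), 0.391 (RDN58-2) and 0.141 (ITS2-2). Without the reads at YLR154C-G, added after seeing the data, RDN18-2 was at 1.64, RDN25-2 at 0.489, 18S over 25S at 3.36, 5.8S over 25S at 1.30 and ETS1 over 25S at 15.0. The causes were not tested, beyond the smaller totals these settings use. The 117 higher calls became 70 at 4-fold, 60 by entries and 66 with totals without rRNA. The 244 lower calls became 137 with at least 30 reads, 735 with no minimum and 43 by entries. Entry values at ITS1 and ITS2 with Bud22 rest on 4 and 9 entries. No paired analysis was possible because each group has 1 library.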

Other observations

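Antisense reads over the precursor were seen in the control and not with Bud22. RDN37-2 had 16 antisense reads beside 17216 sense reads in the control, 0.0929% of both strands (interval 0.0531 to 0.151), of which 6 were counted in RDN18-2, 4 in RDN25-2, 4 in ITS1-2 and 2 in ITS2-2. At ITS1-2 they were 4 of 66 reads, or 6.06% (1.68 to 14.8), and at RDN18-2 0.149% (0.0547 to 0.324). In the Bud22 library there were 0 beside 13752 sense reads, which allows a share of up to 0.0218% by a limit of 3 counts. That limit takes each read as independent, although these reads were 558 entries. By entries the limit would be higher and was not computed, so no difference between the libraries is given. ETS1-2 and RDN58-2 had none in either library.

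The repeat copies carried equal sense, antisense and entry values in 5 of the 6 rows with both copies listed. The exception was ITS2, with 34 reads and 9 entries at ITS2-2 against 25 and 6 at ITS2-1 with Bud22, and with 175 and 28 against 171 and 26 in the control, although RDN37-1 and RDN37-2 were equal. RDN58-1 is listed in neither library, while RDN58-2 had 569 and 1055 reads. The borders of the copies in the authors' annotation were not examined here. Without the reads that only ITS2-2 holds, the read ratio of ITS2 would be 0.183 (0.115 to 0.279), in the same direction. The entry ratio over the precursor was not recomputed for ITS2-1. Over all named features the entry ratio was 1.45 (0.487 to 3.60) at ITS2-1 and 2.02 (0.837 to 4.39) at ITS2-2, and both intervals include 1. The higher entry value of ITS2 is therefore given for the -2 copy only.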
